A study of Mus musculus with 92 samples.

Results

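The oxidative phosphorylation genes described here are nuclear genes for the respiratory chain and ATP synthase, chosen by symbol (Nduf, Sdh, Uqcr, Cox, Atp5, Cyc1 and Cycs) and kept where at least 25% of the cells in 1 sort gate or the other had a value above 0. Of 96 matching symbols among 23956 in the table, 89 were members. They were measured in 92 single bone marrow cells from C57BL/6 mice, which all carried Gfi1-R412X on both alleles. GFI1 is a zinc finger repressor needed for granulocyte development, and there were 0 wild type cells. After CD117 bead enrichment, 47 cells came from the CD11b+ GMP-P gate and 45 from the GMP gate, names used as the labels give them. The authors' groups file gives each cell 1 of 9 state names. Each gate is 1 set of cells with 1 date code and no animal named, so gate, animal and capture run cannot be told apart, no test was made, no p-value is given, and every SD is the spread of cells. The mutation's own effect was not analysed here.

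Oxidative phosphorylation passes electrons from NADH, through complex I, and from succinate, through complex II, to ubiquinone, complex III, cytochrome c and complex IV, where oxygen is reduced. Complexes I, III and IV pump protons, and complex V, the ATP synthase, uses the gradient to make ATP. Most subunits are nuclear-encoded, and those encoded by mitochondrial DNA were not analysed here. Mature neutrophils are known for relying largely on glycolysis.

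Levels are TPM, transcripts per 1000000, which are per length, or the mean of log2(TPM + 1) over cells, where a difference of 1 is 2-fold. A mean of log values falls both when a transcript is low and when it is missed in more cells, so summed TPM is given too. The number of genes above 0 stands in for the unknown depth of a cell: its median was 4143 in CD11b+ GMP-P and 5611 in GMP. Granule genes (primary and late lists, 28 genes) took a median of 26.5% of TPM in CD11b+ GMP-P and 6.31% in GMP. Late granule genes mark the CD11b+ GMP-P cells, with a median of 19.5% of TPM against 0.0427% in GMP. Of 12 erythroid markers, 8 were at 0 in all CD11b+ GMP-P cells and 5 in all GMP cells, with summed levels of 0 to 0.0569% and 0 to 0.117% of TPM. Monocyte markers (0 of 12 at 0 throughout in either gate) had a median of 0.427% in CD11b+ GMP-P and 0.791% in GMP, and 0.245% in Myelo-2 and 0.734% in Gran-2. Basophil and mast cell markers had a median of 0.0380% in CD11b+ GMP-P (highest 0.177%) and 0.0660% in GMP (highest 1.34%), and 0.000646% in Myelo-2 and 0.0686% in Gran-2. T and NK cell markers, of which 5 of 8 were at 0 in all cells of each gate and which share Nkg7 with the primary granule list, summed to a median of 0.272% in CD11b+ GMP-P and 0.341% in GMP, and 0.00122% in Myelo-2 and 0.458% in Gran-2. The part of these markers in the differences was not tested.

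The members divide into 37 genes of complex I, 4 of complex II, 9 of complex III, 12 of complex IV, 15 of complex V, cytochrome c (Cycs) and 11 that are not subunits, mostly assembly factors. Ndufa4 is counted with complex I by its symbol, although its protein is known as a complex IV subunit. In both gates 81 members passed the detection rule. The 8 that passed in GMP alone were Atp5s, Atp5sl, Cox6b2, Ndufaf1, Ndufaf4, Ndufaf5, Ndufaf6 and Sdhaf1, and 0 passed in CD11b+ GMP-P alone; such a member had to be detected more often in GMP. Just inside the rule, Atp5s, Ndufaf5 and Sdhaf1 were above 0 in 28.9% of GMP cells. Just outside it, Cox6a2 was above 0 in 4.44% of GMP cells and 0% of CD11b+ GMP-P cells.

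Upstream sequence is shown for the 3 genes of the c subunit of ATP synthase, because they encode 1 mature protein and differed in level, and for Cox6a1 and Cycs. Cox6a1 had the highest mean TPM of complex IV and was picked with Atp5g2 after the search because its sequence holds a match, while Cycs holds none. These are the 250 bases before the start of each gene in RefSeq (GRCm38.p6, a later build than the mm9 of the expression values). Capitals mark matches on either strand to any of the motifs NRF1, GABPA, YY1, SP1 and CCAAT named after the sequences.
Atp5g1, chr11:96075632-96075881, minus strand: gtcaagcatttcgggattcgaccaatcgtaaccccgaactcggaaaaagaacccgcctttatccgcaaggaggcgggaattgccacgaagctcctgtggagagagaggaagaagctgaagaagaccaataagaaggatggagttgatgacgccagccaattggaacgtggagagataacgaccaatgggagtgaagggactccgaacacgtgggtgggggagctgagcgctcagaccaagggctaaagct
Atp5g2, chr15:102671048-102671297, minus strand: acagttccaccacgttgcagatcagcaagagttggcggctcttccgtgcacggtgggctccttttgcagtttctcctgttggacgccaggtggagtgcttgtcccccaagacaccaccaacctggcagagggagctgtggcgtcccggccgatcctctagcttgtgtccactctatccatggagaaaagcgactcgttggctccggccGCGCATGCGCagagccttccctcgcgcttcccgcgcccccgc
Atp5g3, chr2:73911327-73911576, minus strand: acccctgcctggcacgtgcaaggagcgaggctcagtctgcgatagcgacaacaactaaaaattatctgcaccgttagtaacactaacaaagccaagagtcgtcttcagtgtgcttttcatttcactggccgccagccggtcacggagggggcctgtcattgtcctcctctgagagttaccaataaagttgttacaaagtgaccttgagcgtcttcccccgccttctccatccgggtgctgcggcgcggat
Cox6a1, chr5:115348959-115349208, minus strand: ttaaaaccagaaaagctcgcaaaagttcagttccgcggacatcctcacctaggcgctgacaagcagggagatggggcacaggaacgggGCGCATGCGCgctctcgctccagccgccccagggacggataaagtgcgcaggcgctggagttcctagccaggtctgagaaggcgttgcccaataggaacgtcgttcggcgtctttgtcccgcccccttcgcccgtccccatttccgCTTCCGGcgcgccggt
Cycs, chr6:50566570-50566819, minus strand: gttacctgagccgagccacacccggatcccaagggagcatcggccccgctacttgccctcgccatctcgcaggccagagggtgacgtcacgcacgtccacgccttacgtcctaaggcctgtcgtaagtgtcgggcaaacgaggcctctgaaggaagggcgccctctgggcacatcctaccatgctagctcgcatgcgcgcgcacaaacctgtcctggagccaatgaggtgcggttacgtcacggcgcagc
Atp5g2 and Cox6a1 hold the NRF1 letters and Cox6a1 also holds those of GABPA, on the reverse strand. Atp5g1, Atp5g3 and Cycs hold none of the full search letters in this window, which for CCAAT were GGCCAAT. The shorter letters CCAAT do occur in each of these sequences, and near matches to any motif were not counted.

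The motifs were chosen by hand with member values known and searched once, as exact letters. Promoters were found by symbol for 73 of the 89 members. The NRF1 palindrome stood in 5 of them (6.85%), against 0.877% of all 27025 genes, and the GABPA letters CCGGAAG in 14 (19.2%), against 7.83%. The CCAAT-box letters GGCCAAT stood in 7 (9.59%), against 4.40%. The SP1 letters GGGGCGGGG stood in 9 (12.3%), close to the 11.8% of all genes. The YY1 letters AAGATGGC stood in 1 (1.37%), against 1.83%, and the TATA letters TATAAA in 5 (6.85%), against 14.3%. The 27025 genes were not filtered by detection in these cells, as the members were, so the sets are unlike in that. These counts describe letters in a window and show no binding.

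The summed transcript of the 89 genes differed most between states. In CD11b+ GMP-P the lowest, median and highest cell held 0.840%, 1.48% and 2.51% of all TPM in the 15 Myelo-2 cells, against 2.60%, 3.41% and 4.45% in the 20 Gran-2 cells. The ranges did not overlap, and the median was 2.30 times higher in Gran-2. The 3 Myelo-4 cells held 0.792%, 0.908% and 0.988%, and the 3 Myelo-1 cells 2.76%, 2.85% and 2.95%, so Myelo-1 lay above every Myelo-2 cell and within the Gran-2 range. The 4 Gran-1 cells held 3.66% to 4.26%. In GMP, the 24 Mono cells held 3.49%, 4.57% and 5.72%, the 6 Gran-1 cells 3.31%, 4.02% and 5.0%, the 5 MP cells 4.23% to 4.98%, the 3 cMoP cells 4.55% to 4.74%, the 2 Gran-2 cells 3.65% and 3.70%, and the 5 Multi-Lin cells 2.21% to 4.43%. Over whole gates the median was 3.01% in CD11b+ GMP-P and 4.43% in GMP.

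Between Myelo-2 and Gran-2, granule transcript went against these shares and genes detected went with them. Granule genes took a median of 56.5% of TPM in Myelo-2 and 24.1% in Gran-2, and the medians of genes detected were 2936 and 4595. With granule genes left out of the total, the members held a median of 3.38% in Myelo-2 and 4.50% in Gran-2, a ratio of 1.33, and the ranges of 2.19% to 4.68% and 3.54% to 5.21% overlapped. Between the gates the medians were then 4.14% in CD11b+ GMP-P and 4.76% in GMP. Their part in the differences was otherwise not tested.

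**Figure D1:**
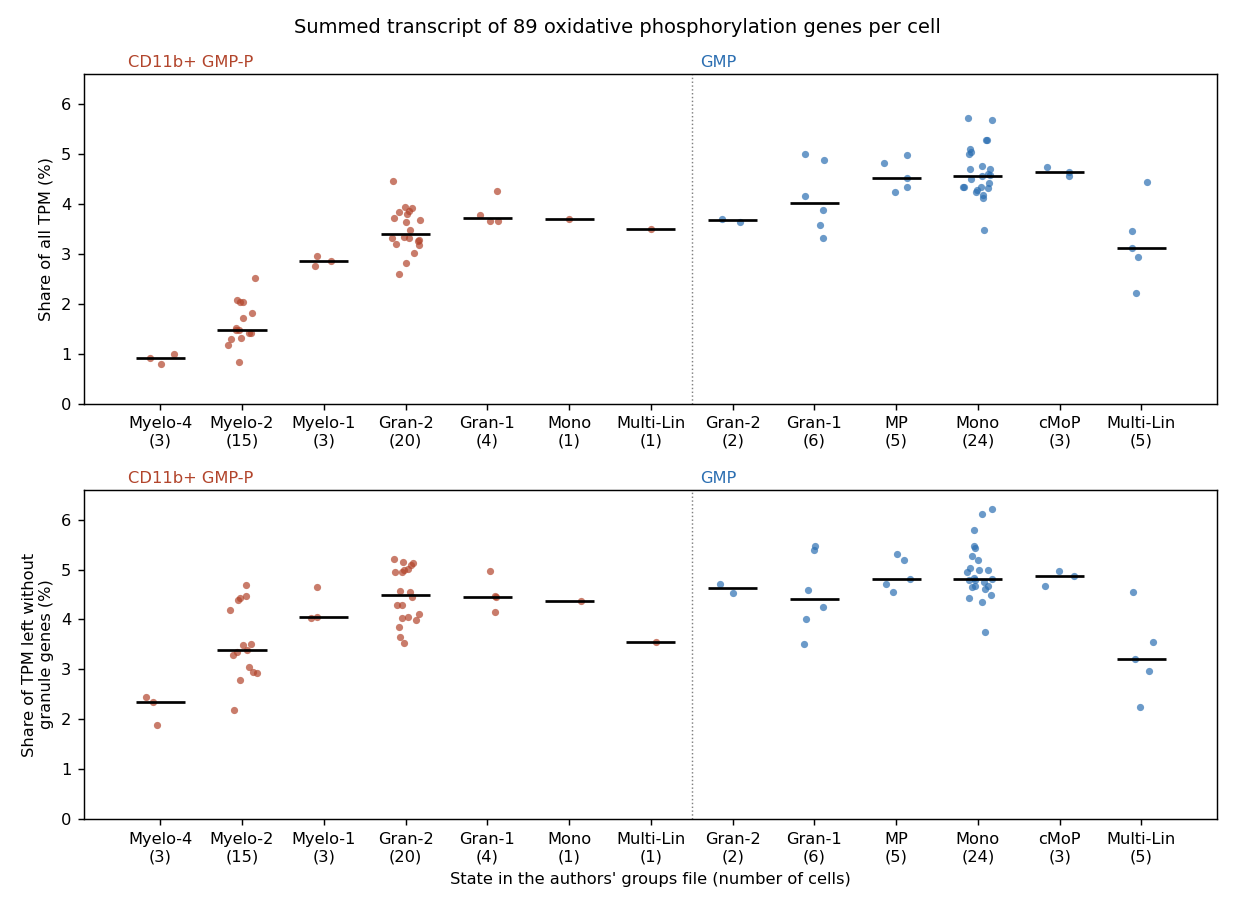
Summed TPM of the 89 genes per cell as a percent of all TPM (top) and of the TPM left without granule genes (bottom), by gate and state; points are cells and bars are medians. Myelo-2 cells (0.840% to 2.51%) lie below all Gran-2 cells (2.60% to 4.45%) in the top panel and overlap them in the bottom panel.

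Within a state the summed share went only weakly with genes detected. Pearson r was 0.39 and Spearman rho 0.16 over the 15 Myelo-2 cells, 0.26 and 0.21 over the 20 Gran-2 cells, and -0.17 and -0.03 over the 24 GMP Mono cells. Against the granule share, r was -0.66 and rho -0.55 in Myelo-2, -0.35 and -0.25 in Gran-2, and -0.10 and -0.21 in GMP Mono. The states lie apart, so no value over whole gates is given. These values share a denominator and a cell's depth and are given as a description.

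**Figure D2:**
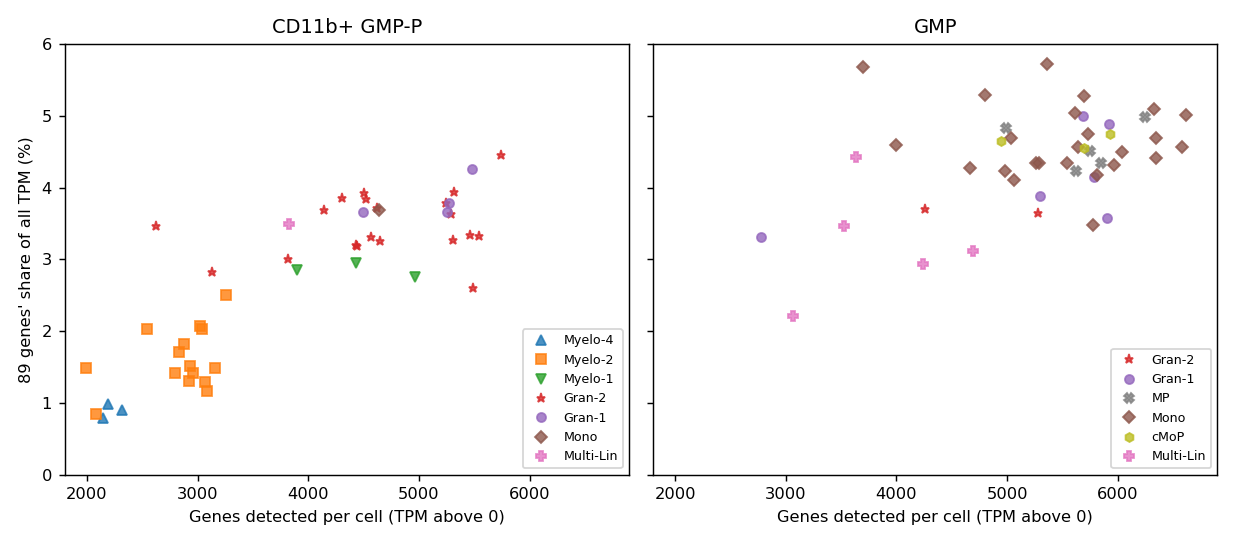
Share of all TPM held by the 89 genes (vertical axis, percent) against genes detected per cell (horizontal axis), with 1 point per cell, CD11b+ GMP-P left and GMP right. Myelo-2 and Myelo-4 cells (medians of 2936 and 2192 genes) lie below all Gran-2 cells (median of 4595) in share. In genes detected, Myelo-2 and Gran-2 cells overlap.

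By complex, the shares of TPM were lower in Myelo-2 than in Gran-2 for each of the 5 complexes and for cytochrome c. Complex I had a median of 0.533% in Myelo-2 and 1.23% in Gran-2, complex II 0.0173% and 0.0876%, complex III 0.135% and 0.432%, complex IV 0.378% and 0.833%, complex V 0.377% and 0.832%, and Cycs 0.00534% and 0.0362%. The Gran-2 median was therefore 2.20 to 2.31 times higher for complexes I, IV and V, 3.20 times for complex III, 5.07 times for complex II and 6.79 times for Cycs. Complex II is 4 genes and cytochrome c is 1, so these ratios rest on few genes. Cycs was above 0 in 14 of 15 Myelo-2 cells and in 20 of 20 Gran-2 cells. The reason for the larger ratios was not tested.

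**Figure D3:**
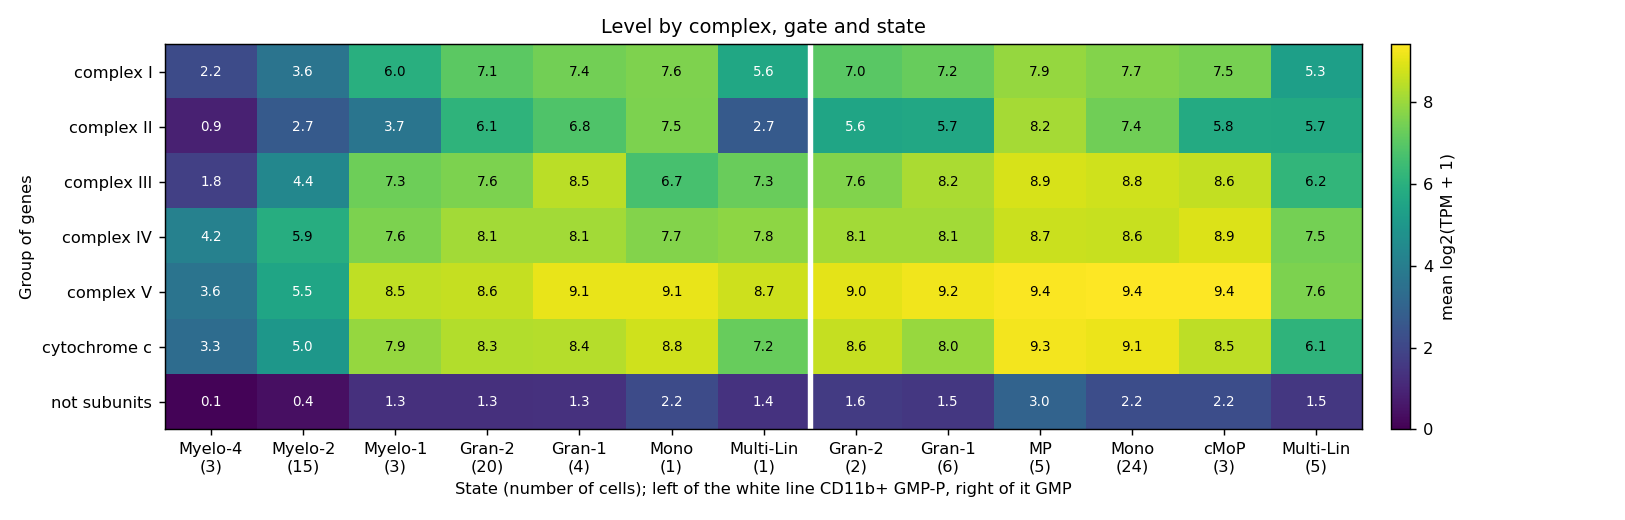
Mean log2(TPM + 1) over the members of each complex (rows) in each state (columns), CD11b+ GMP-P left of the white line and GMP right of it, with cell numbers in parentheses. Every complex is lowest in Myelo-4, then in Myelo-2 except for complex II, which is equally low in the 1 Multi-Lin cell of that gate. Complex V is the highest of the 5 complexes except in Myelo-2 and Myelo-4, where complex IV is.

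Between the gates, most members had lower mean levels in CD11b+ GMP-P than in GMP, and how much lower depended on the scaling and on the mix of states. On the log2(TPM + 1) scale 68 of 89 were at least 2-fold lower, against 39% of the 7803 genes compared, and 0 were at least 2-fold higher, against 2.72%. All 89 were lower by some amount, as were 83% of all genes. The members had higher levels, with a median of 5.92 in CD11b+ GMP-P and 7.99 in GMP, against 1.47 and 2.23 over all genes compared. A gene near 0 has less room to fall 2-fold, and no comparison here matched all genes to the members on level. With detection in 50% of cells the median differences were -1.73 for members and -1.10 for all genes. The members' median difference was -1.71 and that of all genes -0.74; over the 81 members that passed in both gates, 65 were at least 2-fold lower and the median was -1.73. With cell medians of widely detected genes set equal, the members' median was -0.06 and that of all genes 0.91. Then 13 members were at least 2-fold lower, against 5.29% of all genes, and 12 higher, against 45.6%. This setting shifts every gene of a cell alike, values of 0 included, so it leaves the gap between members and all genes as it was. By mean TPM the members' median was -0.69, only 0.16 below all genes.

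Without the Myelo states, which GMP lacks, 12 members were at least 2-fold lower, against 17.8% of all genes, and the median was -0.33, against -0.31 for all genes. In 21 pairs of cells matched on genes detected, 15 members were at least 2-fold lower, against 15% of all genes, and the median was -0.23, against -0.11.

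Complex I oxidizes NADH, and its 37 members had a median gate difference of -1.87. Ndufa12, an accessory subunit, averaged 5.05 ± 4.01 in CD11b+ GMP-P and 8.80 ± 1.80 in GMP, the lowest difference of any member (-3.76); its lowest, median and highest TPM were 0, 69.2 and 1003 in CD11b+ GMP-P, while GMP had 0, 634 and 1718. The ranges overlapped, with 33 of 47 and 44 of 45 cells above 0. Ndufa10, another accessory subunit, differed by -3.44. At the other end lay Ndufb7 (-0.11), Ndufv3 (-0.22), Ndufs1 (-0.23), an iron-sulfur core subunit, Ndufa3 (-0.39) and Ndufs4 (-0.50). Ndufa3 was above 0 in every cell and averaged 8.96 ± 1.31 in CD11b+ GMP-P and 9.35 ± 1.35 in GMP. Ndufa4 had the highest mean TPM of this group and differed by -2.05, and Ndufb8 by -2.47.

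Complex II, succinate dehydrogenase, also serves the tricarboxylic acid cycle, and its 4 genes had a median of -2.41. Sdhd, a membrane anchor, had 0, 96.9 and 744 TPM as lowest, median and highest in CD11b+ GMP-P, while GMP had 0, 504 and 1497, a difference of -2.92. Sdha, the flavoprotein, differed by -2.49, Sdhb, the iron-sulfur subunit, by -2.33 and Sdhc, the other anchor, by -1.59.

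Complex III carries electrons to cytochrome c, and its 9 genes were all at least 2-fold lower, against 39% of all genes (median -2.06). Uqcrfs1, the Rieske iron-sulfur protein, differed by -3.13, Uqcr11 by -2.55, Uqcrc1, a core protein, by -2.29, Cyc1, cytochrome c1, by -1.68 and Uqcrb by -1.30. Cycs itself averaged 6.92 ± 2.53 in CD11b+ GMP-P and 8.60 ± 1.68 in GMP (-1.68), and in matched cells its difference was 0.01.

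Complex IV, cytochrome c oxidase, differed least among the complexes, with a median of -1.22 and 8 of 12 genes at least 2-fold lower, against the same 39% of all genes; with equal medians its median turned to 0.43. Cox6a1 averaged 10.64 ± 2.0 in CD11b+ GMP-P and 11.33 ± 1.54 in GMP (-0.69), and Cox4i1 9.63 ± 1.5 and 10.36 ± 0.84 (-0.73). Cox8a differed by -1.06, Cox7b by -2.14 and Cox7a2l, a supercomplex factor, by -2.48. The general isoforms were the ones detected: Cox4i2, Cox6a2, Cox7a1, Cox7b2, Cox8b and Cox8c, genes known from muscle, testis or oxygen-regulated isoforms, were above 0 in at most 2 cells of a gate. The testis isoform gene Cox6b2 was above 0 in 11 CD11b+ GMP-P cells and 19 GMP cells.

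Complex V had a median of -1.66, with its parts apart. Of the catalytic head genes, Atp5a1 (alpha) differed by -3.61, the lowest of complex V, and Atp5b (beta) by -2.14. Atp5a1 had a lowest, median and highest TPM of 0, 224 and 1088 in CD11b+ GMP-P, while GMP had 212, 817 and 3191. The 3 c-ring genes had a median of -2.32, and the 4 peripheral stalk genes -0.80. Atp5h, subunit d of that stalk, was above 0 in every cell and averaged 8.53 ± 2.05 in CD11b+ GMP-P and 9.10 ± 1.25 in GMP (-0.56), with a higher median TPM in CD11b+ GMP-P (667) than in GMP (582).

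The 11 members that are not subunits had a median of -0.73, near that of all genes, from low levels. Ndufaf2, a complex I assembly factor, was above 0 in 13 of 47 CD11b+ GMP-P cells and 35 of 45 GMP cells (-3.64), and Sdhaf2, a complex II assembly factor, in 19 and 23 (-0.34).

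**Figure D4:**
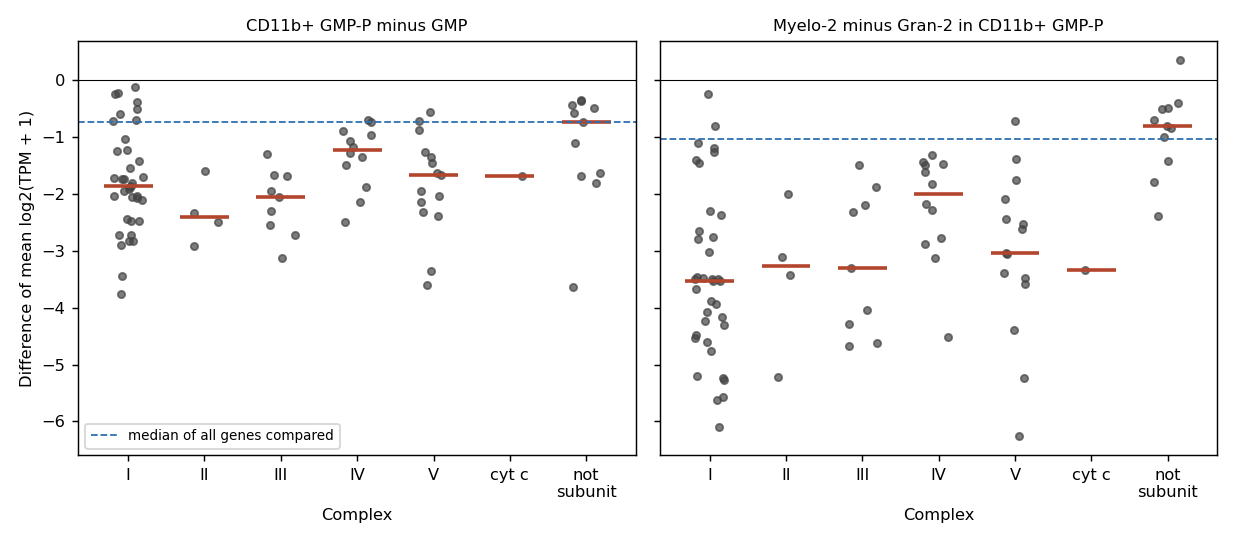
Difference of mean log2(TPM + 1) for each member (points) by complex, CD11b+ GMP-P minus GMP (left) and Myelo-2 minus Gran-2 (right); red bars are medians and the dashed line is the median of all genes compared (-0.74 and -1.04). Complex IV lies nearest to 0 of the 5 complexes in both panels, at -1.22 and -2.01.

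Of 7 other lists, 4 had medians below that of the members and 3 lay nearer to that of all genes (-0.74, with 39% at least 2-fold lower). Between the gates, 15 of 17 tricarboxylic acid cycle genes were at least 2-fold lower (median -2.33), as were 16 of 18 genes of mitochondrial carriers and import (-2.14), 70 of 77 of the mitochondrial ribosome (-1.81) and 79 of 80 of the cytosolic ribosome (-2.09). Glycolysis genes were nearer to all genes, with 7 of 15 (-0.82), as were 13 of 27 other assembly factors (-0.95) and 6 of 12 regulators of mitochondrial biogenesis (-0.91). Idh2, the mitochondrial NADP isocitrate dehydrogenase, differed by -4.19, Slc25a4, an ADP/ATP carrier, by -5.0, Myc by -4.31 and Ldha, lactate dehydrogenase A, by -2.33. These lists held 0 genes past 2-fold in the other direction.

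Within CD11b+ GMP-P, the Myelo-2 cells had lower levels of most members than the Gran-2 cells. Of 87 members compared (Ndufaf1 and Sdhaf1 were detected too rarely), 78 were at least 2-fold lower, against 51.2% of 7334 genes, and 0 were at least 2-fold higher, against 2.62%. By any size all but Atp5s (0.35) were lower, against 85.4% of all genes. The median was -3.01, against -1.04 for all genes. Some members passed the rule in Gran-2 alone, such as Ndufaf2 (above 0 in 0 Myelo-2 and 10 Gran-2 cells) and Atp5sl (0 and 7). Such a member had to be detected more often in Gran-2, and no count over members passing in both states is given. The members also had a higher median level in Gran-2 (7.61) than all genes compared (1.99). With equal medians of widely detected genes the members' median turned to 0.18 and that of all genes to 2.15, with complex IV at 1.19 and complex V at 0.15. Direction was therefore not the same under every setting. This setting shifts every gene of a cell alike, values of 0 included, so undetected genes also rise in cells with low medians. Its sign alone does not show more transcript in Myelo-2. By mean TPM the median was -1.40, against -1.12 for all genes, and over cells above 0 alone, a setting added after seeing the data, it was -1.34 against -0.50.

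A member was above 0 in a median of 60% of Myelo-2 cells and 95% of Gran-2 cells, against 26.7% and 55% over all genes compared. A Myelo-2 cell held a median of 54 members above 0 and a Gran-2 cell 78.

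In complex I (median -3.53), Ndufa9, an accessory subunit, was above 0 in 2 of 15 Myelo-2 cells and 19 of 20 Gran-2 cells, with means of 1.03 ± 2.79 and 7.13 ± 2.79 (-6.10). In the cells above 0 the difference was 0.20, from those 2 Myelo-2 cells. Ndufc1 differed by -5.63 and Ndufb8 by -5.57, each detected in all 20 Gran-2 cells and in 8 and 7 Myelo-2 cells. Ndufs4, close to 0 between the gates, differed by -4.76 here. Ndufb7 had 0, 471 and 1939 TPM as lowest, median and highest in Myelo-2, against 78.2, 628 and 1572 in Gran-2 (-1.27). Ndufb11 differed by -0.81 and Ndufv1, which binds NADH, by -0.25; Ndufv1 was above 0 in only 5 Myelo-2 and 11 Gran-2 cells.

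Sdhd differed by -5.22, Uqcrc1 by -4.28, Uqcr11 by -4.04 and Cycs by -3.33. Cycs had 0, 53.4 and 414 TPM as lowest, median and highest in Myelo-2, against 32.4, 362 and 846 in Gran-2. In complex IV (median -2.01), Cox6a1 averaged 9.91 ± 1.59 in Myelo-2 and 11.38 ± 0.56 in Gran-2 (-1.48) and Cox4i1 8.56 ± 2.03 and 9.99 ± 0.97 (-1.43), while Cox7b differed by -4.52.

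In complex V, Atp5h had 11.5, 645 and 1179 TPM as lowest, median and highest in Myelo-2, against 37.2, 665 and 1498 in Gran-2 (-0.71), ranges that overlap almost wholly. Atp5g1 had the lowest difference of all members (-6.26): it was above 0 in 7 of 15 Myelo-2 cells, with 0, 0 and 399 TPM, and in 20 of 20 Gran-2 cells, with 114, 612 and 1096 TPM. Atp5g2 and Atp5g3, for the same c subunit, differed by -3.04 and -3.05.

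The 3 c-subunit genes therefore took unlike shares of their common transcript. Atp5g1 made a median of 0.667% in the 14 Myelo-2 cells with any c-subunit transcript, with a range of 0 to 88%, and 34.4% in Gran-2, with a range of 13.5 to 75.7%. The ranges overlapped, through 4 Myelo-2 cells with shares of over 20%. Atp5g2 made 52.3% in Myelo-2 and 26.1% in Gran-2, and Atp5g3 16.3% and 30.8%. In the 3 Myelo-1 cells Atp5g1 made 15.9% to 25.8%, in the 4 Gran-1 cells of that gate 39.4% to 53.9%, and in GMP Mono a median of 40.5%. The 3 genes' summed TPM had a median of 198 in Myelo-2 and 1625 in Gran-2, so the shares in Myelo-2 rest on less transcript; reads can also be shared between such copies and their pseudogenes.

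**Figure D5:**
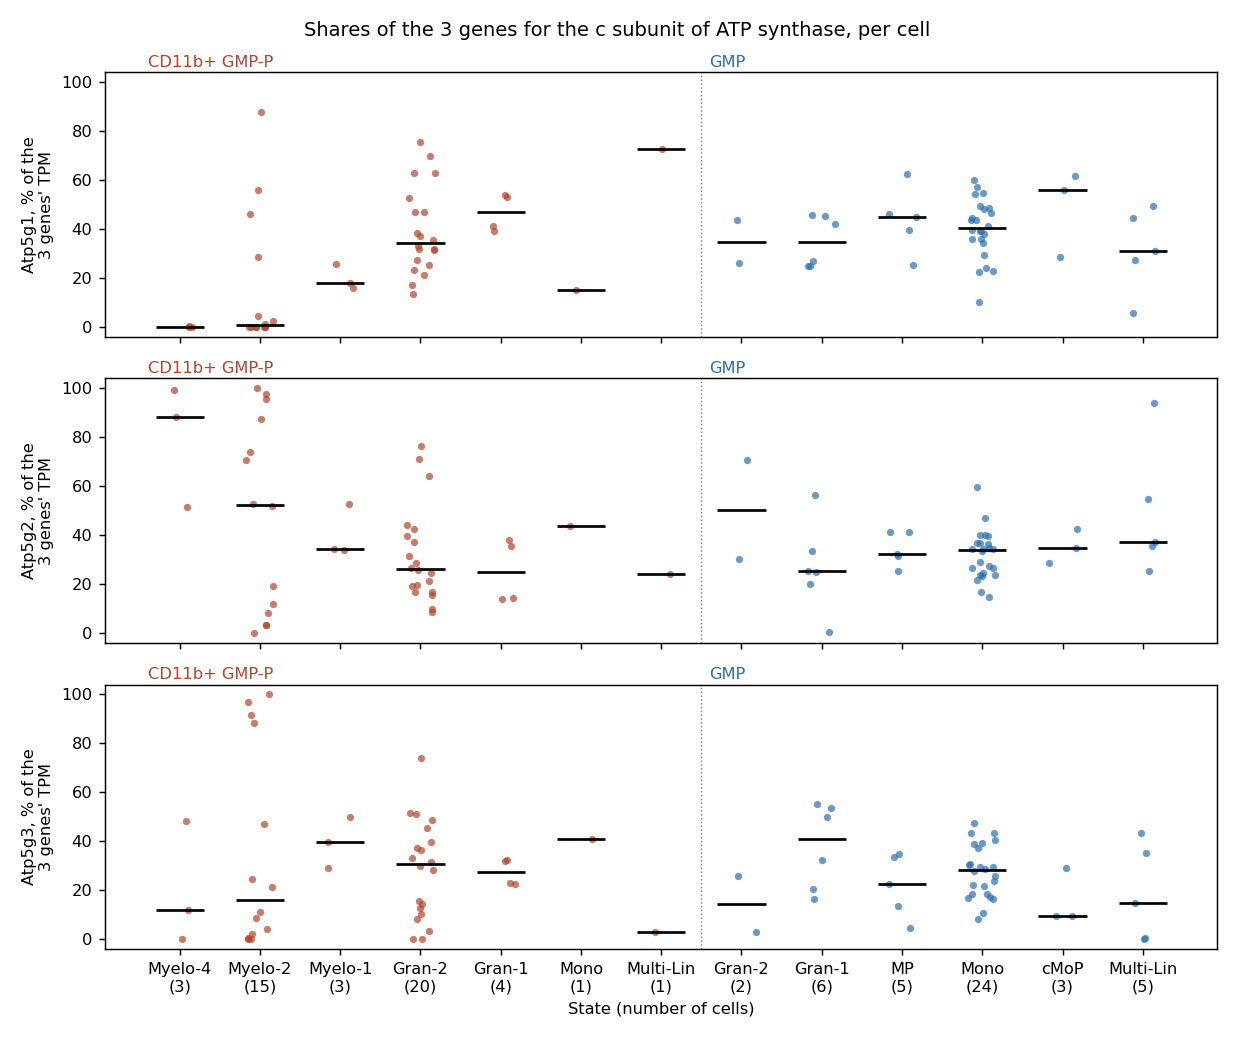
Share of the summed TPM of Atp5g1, Atp5g2 and Atp5g3 held by each gene per cell (percent), by gate and state, with bars at medians. Most Myelo-2 cells lie near 0 for Atp5g1 (median 0.667%), against a median of 34.4% in Gran-2.

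Other lists are set here beside all genes, of which 51.2% were at least 2-fold lower, with -1.04 as their median. Of the cytosolic ribosome, 80 of 80 genes were at least 2-fold lower in Myelo-2 than in Gran-2 (median -3.44), of the mitochondrial ribosome 65 of 75 (-2.43), of glycolysis 12 of 15 (-2.08) and of the tricarboxylic acid cycle 15 of 17 (-2.65).

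Within GMP, the Mono, MP and Gran-1 states each lay closer to the other cells of the gate than Multi-Lin did. The 24 Mono cells had 26 members past 2-fold higher against the other 21 cells, beside 18.1% of genes, and 1 past 2-fold lower, beside 3.43%. By any size 13 were lower, beside 34.5% of genes, and the median was 0.64, against 0.27 for all genes. Ndufb10 was highest, at 8.39 ± 1.41 in Mono and 6.19 ± 3.46 in the others (2.20), and Sdhb differed by 1.79; Ndufs5 was lowest (-1.12). In matched cells the Mono median was 0.16, against 0.0025 for all genes. The other 21 cells mix states and include the 5 Multi-Lin cells. Mean levels over all members were 7.54 in Mono, 7.78 in MP, 7.41 in cMoP, 7.02 in Gran-1, 6.86 in Gran-2 and 5.64 in Multi-Lin. The part of this mix in the Mono difference was not tested.

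The 5 MP cells had 22 members at least 2-fold higher than the other 40 cells, against 26.4% of all genes, and 1 lower, against 9.21%. By any size 15 were lower, against 38.6%, with a median of 0.46 against 0.27. The assembly factor Ndufaf2 was at 8.0 ± 0.65 in MP and 4.78 ± 3.35 in the others (3.22), and Sdhc differed by 2.28. The 6 Gran-1 cells had 17 members at least 2-fold lower, against 16.5%, and 7 higher, against 16.4%. By any size 51 of 89 were lower, against 51.6%, and the median was -0.20. Sdhb was lowest (-2.75), then Ndufb10 (-2.53), and Ndufv3 highest (1.55).

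The 5 Multi-Lin cells had 60 members at least 2-fold lower than the other 40, against 42.9% of all genes, and 5 higher, against 9.33%. By any size 76 were lower, against 71.6%. The median was -1.73, against -0.78 for all genes, and the median number of genes detected in Multi-Lin was 3634. Ndufaf2 was at 0 in all 5 and Cox6b1 differed by -4.92, while Sdha (1.83), Ndufs5 (1.59) and Cox7a2l (1.18) were higher. The catalytic head genes parted: Atp5a1 averaged 9.66 ± 1.01 in Multi-Lin and 9.61 ± 0.74 in the others, and Atp5b 8.19 ± 2.30 and 10.34 ± 0.61. In 3 matched pairs the median was -0.96, against 0.046 for all genes. By mean TPM it was -0.56 and that of all genes -0.88, so the members then lay 0.32 above all genes, not below them.

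Cells named Gran-1 or Gran-2 were also compared between the gates, with unlike make-up: CD11b+ GMP-P had 20 Gran-2 and 4 Gran-1 cells, and GMP 2 Gran-2 and 6 Gran-1 cells. Of the members, 9 were lower by 2-fold or more in CD11b+ GMP-P, against 18.8% of all genes, and 9 were higher, against 10.6%. By any size 53 of 88 were lower, against 57.3%. The median was -0.14 for the members and for all genes. The summed share had a median of 3.64% in CD11b+ GMP-P and 3.79% in GMP. Ndufv1 was lowest (-3.84), and Atp5a1 averaged 7.69 ± 2.31 in CD11b+ GMP-P and 9.96 ± 0.87 in GMP (-2.27), while Ndufb10 was higher (2.39).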

How the data were processed

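Per the labels' protocols, single cells were captured on a Fluidigm C1 chip, cDNA was made with a SMARTer kit and libraries with Nextera XT. Per the submitters' processing notes, the authors used Bowtie2 and RSEM with mm9; their versions, and how states were called, are not stated. The deposited log2 values are log2(TPM + 1), and TPM sums to 1000000 per cell without Ly6g. The authors' deposited groups file gives each cell's state as a score number and a name. TPM keeps no depth, so no count test or interval from reads was possible. Every cell was kept, with no call of doublets. The files held 0 columns of other samples.

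Means over cells were compared for genes detected in 25% or more of either group's cells, with a size rule of 2-fold and states of at least 5 cells (Python 3.11.15, pandas 2.3.3, NumPy 2.4.6, SciPy 1.17.1). The method was tested on simulated data, with each gene's values shuffled over the cells and some widely detected genes then shifted. Shuffling removes cell-wide differences in genes detected, so that test does not bear on them. Matching paired cells within 5% of genes detected. Equal medians shifted each cell's log2 values, those of 0 included, by its median over genes above 0 in at least 80% of all cells. As a gate has no replicates, a log2 value under another setting was said to have moved when it changed by more than 1.5-fold, and a summed share when it changed by more than 1 SD of cells. Named members were those with the 3 highest mean TPM per complex, the extremes of each comparison, isoform sets, members passing in 1 gate, and the Sdh genes, Cyc1 and Cycs; not every one is printed, and 1 item is not reported here. Members, lists, complexes and promoter motifs were chosen with earlier results of these data known.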

Additional observations from a re-analysis of the deposited data

Results flagged for a closer look

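Among 28 sets of cells examined for a cell far from the others, where chance gives about 1 in 20, 2 stood out, both in the 5 MP cells of GMP. Complex II took 0.237% of TPM in cell 10, against 0.13% to 0.161% in the other MP cells. Cytochrome c took 0.157% in cell 30, against 0.0421% to 0.0625% in the other MP cells.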

How the results depend on the processing

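The direction of the gate difference held under each of the 11 alternatives for the members' median, which ran from -2.32 (pseudocount of 0.1 TPM) to -0.058 (equal medians), while its size did not hold. The other values were -0.69 by mean TPM (22 members at least 2-fold lower, against 30.2% of all genes), -0.85 over cells above 0 alone (34, against 20.8%), -0.23 in matched cells (15, against 15%) and -0.33 without the Myelo states (12, against 17.8%); equal medians gave 13, against 5.29%. Complex IV turned to 0.43 with equal medians and Cycs to 0.011 in matched cells. For Myelo-2 against Gran-2 the median was -3.78 and -1.96 with pseudocounts of 0.1 and 10 TPM, -1.40 by mean TPM and -1.34 over cells above 0 alone. With equal medians it turned to 0.18 (20 members at least 2-fold lower, against 3.22% of all genes), with complex IV at 1.19, complex V at 0.15 and all genes at 2.15. Without a detection filter the median of all genes was 0, and Ndufa9 over cells above 0 turned to 0.20. Matching left 2 pairs there and was not run.

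Among GMP states, Gran-1 had 10 lower members with a pseudocount of 10 TPM (against 4.39% of all genes) and 11 in matched cells (24.4%). MP had 0 with a pseudocount of 10 TPM (1.94%), 3 with equal medians (19%), 5 by mean TPM (29.9%), 4 over cells above 0 (19.3%) and 6 in matched cells (21.8%), where its complex II was at -0.035 and Sdhc at -0.090. Mono had 0 (0.455%), 3 (13%), 3 (13.8%) and 2 (13.4%) under the first 4 of those settings, and Ndufa9 was at -0.12 by mean TPM. The counts of members at least 2-fold higher did not hold in size. In Mono the count was 26 and ran from 4 to 35 over the settings, with all genes at 4.69% to 31.9%. In MP it was 22 and ran from 7 to 26, with all genes at 9.46% to 38.3%. Each of these 2 counts changed by more than 1.5-fold in 5 of 10 alternatives. Multi-Lin had a median of -0.31 with equal medians, against 0.64 for all genes (32 lower, against 13.6% of all genes). By mean TPM its median was -0.56, against -0.88 for all genes (27 lower, against 48.3%). Over cells above 0 its median was -0.88, against -0.0078 for all genes, and in matched cells -0.96, against 0.046. Its complex IV turned to 0.33 with equal medians and 0.044 in matched cells, its complex II to 0.39 by mean TPM and 1.65 over cells above 0, and Ndufaf3 to -3.01 in matched cells. Gran states between the gates had 5 lower members with a pseudocount of 10 TPM (6.45%) and 14 in matched cells (21.1%). Without granule genes the summed share had a median of 4.14% in CD11b+ GMP-P, 3.38% in Myelo-2 and 4.50% in Gran-2. Without the highest member of each complex it was 3.58% in GMP and 2.85% in Gran-2. The cause of these changes was not tested. No paired analysis was possible because each gate is 1 set of cells and no test was made.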
